A study of Rattus norvegicus with 12 samples.

Results

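The microglia marker genes Aif1, Fcer1g, Cd14, Fcgr3a, Ctss and Tyrobp were examined in RNA of rat hippocampal neuron cultures on 12 microarrays. Members were chosen by symbol: every probe that the platform annotation assigned to 1 of these 6 genes was taken. Each gene had 1 probe, so that the members were 6 of the 22523 probes of the array and 6 of the 13337 genes named on it. The study stimulated cultured neurons for 5 min with transcription blocked or intact, in order to find transcripts whose level was altered by neural activity after transcription.

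Cultures were prepared from Sprague-Dawley rat embryos (E18.5) and grown for 12 days atop a glial feeder layer, and 3 coverslips were pooled for each sample. All cultures, controls included, were first held for 3 h in the sodium channel blocker TTX (100 nM) and the glutamate receptor antagonists CNQX (40 µM) and D-APV (50 µM). Block cultures stayed in these inhibitors. Activity cultures were released from them and stimulated for 5 min with 50 µM bicuculline, a GABA receptor antagonist, and 500 µM 4-AP, a potassium channel blocker. Block+ActD and Activity+ActD cultures also received 25 µM ActD (actinomycin D), which inhibits RNA polymerase, and cultures without ActD received its solvent DMSO. RNA was harvested at 5, 30 or 60 min, and each of the 12 combinations was measured on 1 array.

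Microglia are the resident macrophages of the brain. Since they arise from progenitors outside the neural lineage, they are present in hippocampal cultures and in glial feeder layers only as far as they are carried over with the tissue. Many of their surface receptors lack a signalling tail of their own and pair with small adaptor proteins that carry an immunoreceptor tyrosine-based activation motif (ITAM), while others, such as the toll-like receptors, sense microbial products and drive the transcription factor NF-κB.

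The members differ in role. Tyrobp (also called DAP12) and Fcer1g (the Fc receptor gamma chain) encode ITAM adaptors. Fcgr3a encodes a receptor for the constant part of immunoglobulin G, of the kind that signals through Fcer1g, and Cd14 encodes a co-receptor that passes bacterial lipopolysaccharide to Tlr4. Ctss encodes cathepsin S, a lysosomal protease that trims the invariant chain of MHC class II, and Aif1 encodes Iba1, a calcium-binding protein whose antibody stain is widely used to see microglia.

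Sequences upstream of the start site were given for 3 of the 6 members, Cd14, Fcgr3a and Ctss (RefSeq, rat build GRCr8). PU.1, encoded by Spi1, is the transcription factor on which microglia depend, and its sites hold the letters GAGGAA. The sequences that hold these letters (either strand) within 250 bases before the start site are shown. Each is written on the gene's strand with the motif in capitals, as GAGGAA or as its reverse complement TTCCTC.
Cd14, chr18:28611281-28611310, minus strand: tagggttgttagGAGGAAgagaagtgggga
Cd14, chr18:28611246-28611275, minus strand: gttgagttcacaGAGGAAgggacagggtga
Fcgr3a, chr13:85782570-85782599, plus strand: aaagctatttacTTCCTCtcttctagccaa
Ctss, chr2:185775369-185775395, plus strand: atgaaagttcacTTCCTCgttgtggat
The letters were present in 3 of 3 members and in 23.2% of 27457 promoters of the same length. The longer form GAGGAAGT was present in 2 of 3 (Fcgr3a and Ctss) and in 2.04% of promoters, and the TATA box letters TATAAA, read on the gene's strand alone, in 0 of 3 and in 8.38%. A match describes the letters and is no evidence of binding, and its relation to the members' levels was not tested.

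The arrays differed far more by harvest than by treatment. Total intensity ranged from 10858233 to 13824777 units, and between 9751 and 11032 probes were detected per array (detection p under 0.01, the chance of such a signal among the negative controls of that array). Of the 11792 probes detected on at least 2 arrays, 5809 differed between the 5 min arrays and the later arrays (limma, adjusted p under 0.05), with 3050 higher and 2759 lower at 30 and 60 min. The sources used here do not say whether the harvests came from 1 preparation of cultures or from several, so that time after the stimulus and differences between preparations cannot be told apart.

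All 6 member probes followed this division. On the 4 arrays of the 5 min harvest, 22 of 24 member readings were detected, against 12 of 48 on the 8 later arrays. Between 5 and 6 members were detected on each 5 min array, between 1 and 3 on each 30 min array, and 0 or 2 on each 60 min array. The signal at which a probe could be detected lay between 64.2 and 79.6 units, depending on the array.

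**Figure D1:**
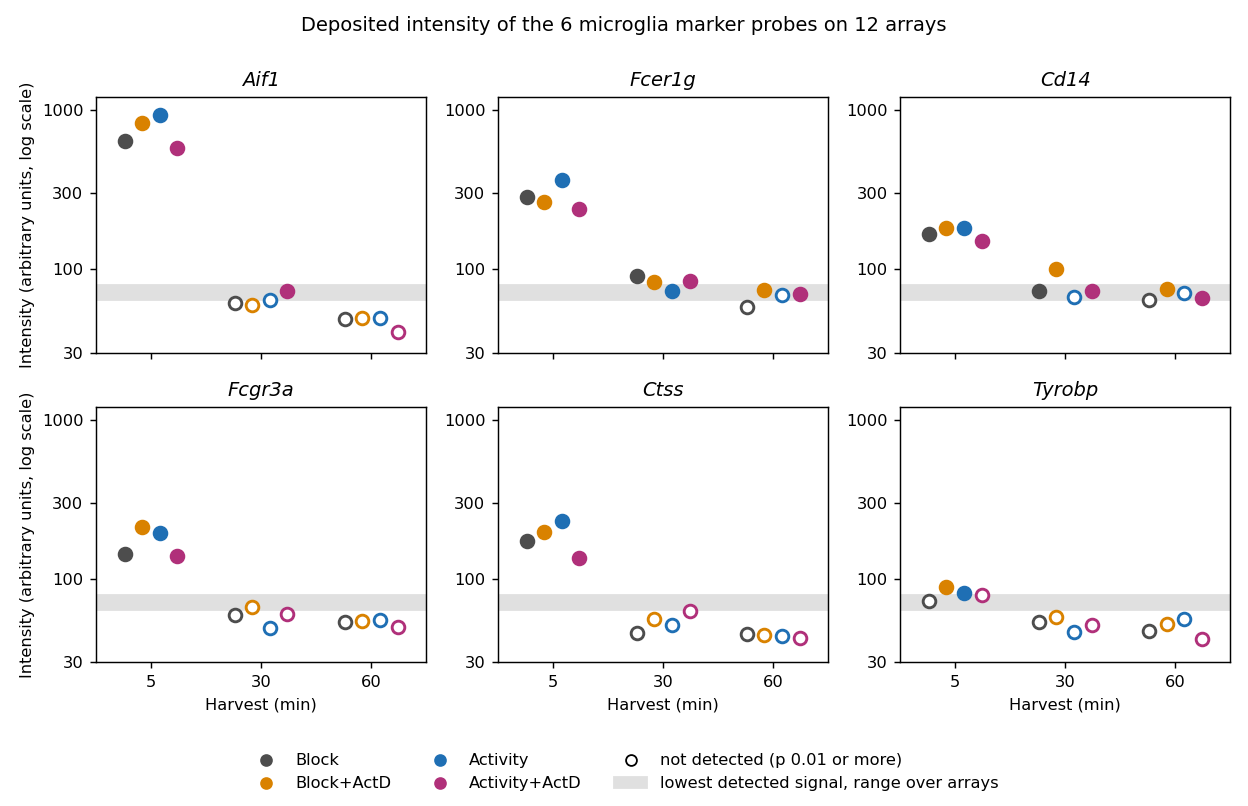
Deposited intensity (arbitrary units, log axis) of the 6 member probes on each of the 12 arrays, by harvest in min and by treatment (colour). Filled points were detected at a detection p under 0.01 and open points were not; the grey band spans the lowest detected signal of the arrays, 64.2 to 79.6. All 5 min points of a gene lie above all its later points, which lie in or near the band.

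Fcer1g was the adaptor with a measurable level at every harvest. Its intensity at 5 min was 285.1 in Block, 265.4 in Block+ActD, 364.5 in Activity and 237.9 in Activity+ActD. At 30 min it was 90.8 in Block, 82.9 in Block+ActD, 73.2 in Activity and 83.7 in Activity+ActD, and at 60 min 58.1, 73.5, 68.4 and 69.8 in the same order. All 5 min arrays lay above all later arrays, and the lowest of them was 2.62 times the highest later one. The detection p of Fcer1g was 0 on the 4 arrays of 5 min, on the 4 arrays of 30 min and in Block+ActD and Activity+ActD at 60 min. It was 0.111 in Block and 0.0336 in Activity at 60 min, where the gene was thus not detected. The log2 difference, later minus 5 min, was -2.58 ± 0.15 (SE), so that later levels were 5.96-fold lower (adjusted p = 1.36e-08). Without background correction and with totals made equal, they were 3.42-fold lower.

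Tyrobp, the adaptor of Trem2 and other receptors, was close to the limit of detection throughout. Its intensity at 5 min was 72.6 in Block, 88.6 in Block+ActD, 81.7 in Activity and 78.9 in Activity+ActD. It was detected in Block+ActD and Activity, with a detection p of 0 in both. In Block and Activity+ActD the detection p was 0.038 and 0.0113, and it was thus detected on 2 of 4 arrays. The 8 later arrays ranged from 42 to 57.8 (median 51.8), with detection p between 0.222 and 0.652, and Tyrobp was detected on 0 of them. The groups of arrays did not overlap, but the lowest 5 min array was 1.26 times the highest later one. The measured difference was -0.83 ± 0.12 on the log2 scale (adjusted p = 6.05e-05). The later signals were not above background, nor were those of Block and Activity+ActD at 5 min, so that no bound can be given. With undetected 5 min signals taken at face value, the 5 min mean was 1.11-fold the lowest detected signal of the later arrays after background correction. It was 1.03-fold without that correction and with totals made equal.

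Fcgr3a, the immunoglobulin receptor, was detected on all 5 min arrays and on no later array. Its intensity at 5 min was 142.9 in Block, 211.7 in Block+ActD, 192.9 in Activity and 138.7 in Activity+ActD, with a detection p of 0 on all 4 arrays. Later arrays ranged from 49.5 to 67 (median 54.9), with detection p between 0.103 and 0.375. No later array overlapped the 5 min arrays. Against the lowest detected signal, its level was at least 3.54-fold higher at 5 min after background correction, and at least 2.16-fold without it and with totals made equal. The fitted log2 difference, which takes the undetected signals at face value, was -2.34 ± 0.15 (adjusted p = 3.43e-08).

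Cd14, the lipopolysaccharide co-receptor, was lower at later harvests but remained measurable on most arrays. Its intensity at 5 min was 165.7 in Block, 181.8 in Block+ActD, 182.5 in Activity and 150.3 in Activity+ActD, all with a detection p of 0. At 30 min it was 72.9 in Block, 100.3 in Block+ActD, 67.2 in Activity and 73 in Activity+ActD, and at 60 min 63.7, 75, 70.4 and 66.3 in the same order. Its probe was detected on 5 of the 8 later arrays, and the detection p of the other 3 was 0.0164 (Activity, 30 min), 0.0303 (Block, 60 min) and 0.0112 (Activity, 60 min). Its range over the 5 min arrays was narrow, with the highest 1.21 times the lowest. The highest later array, Block+ActD at 30 min, lay below every 5 min array. The log2 difference was -1.73 ± 0.10, with later levels 3.32-fold lower (adjusted p = 1.83e-08), or 2.08-fold without background correction and with totals made equal.

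Ctss, the cathepsin, resembled Fcgr3a. Its intensity at 5 min was 172.1 in Block, 196.2 in Block+ActD, 231.6 in Activity and 136.2 in Activity+ActD, with a detection p of 0 on all 4 arrays. Later arrays ranged from 42.4 to 62.8 (median 45.5), with detection p between 0.069 and 0.73, and 0 of 8 were detected. The highest later array was Activity+ActD at 30 min, and it lay below every 5 min array. Ctss was at least 3.86-fold higher at 5 min after background correction, and at least 2.32-fold without it and with totals made equal. The fitted log2 difference was -2.64 ± 0.15 (adjusted p = 1.38e-08).

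Aif1, the gene of Iba1, had the largest measured difference of the members. Its intensity at 5 min was 637.2 in Block, 827.4 in Block+ActD, 933.1 in Activity and 572 in Activity+ActD, with a detection p of 0 on all 4 arrays. At 30 min it was 61.3 in Block, 59.7 in Block+ActD, 63.9 in Activity and 73.3 in Activity+ActD, and at 60 min 48.7, 49.1, 49.4 and 40.3 in the same order. Of the later arrays only Activity+ActD at 30 min detected it, with a detection p of 0. The detection p of the others was 0.105, 0.275 and 0.0453 at 30 min (Block, Block+ActD, Activity) and between 0.391 and 0.764 at 60 min. The lowest 5 min array was 7.80 times the highest later one. The fitted log2 difference was -4.72 ± 0.15 (adjusted p = 2.70e-11). Since 7 of the 8 later readings were not above background, the fold is better given against the lowest detected signal: it was 18.4 after background correction, and 9.25 without it and with totals made equal.

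Thus 6 of 6 members were called lower at the later harvests, where 23.4% of the 11792 tested probes were called lower. Their median log2 difference was -2.46, beside -0.01 over all tested probes. Fcgr3a, Ctss and Tyrobp entered this test only through their 5 min arrays. Aif1, detected on 1 later array, would not have entered without its 5 min arrays either. The count was therefore repeated over all probes of the array. There too 6 of 6 were called lower, where 12.2% of 22523 probes were called lower and 13.4% higher. The 5 min arrays all lay above the later arrays for 12.7% of probes in deposited intensity and for 5.02% once totals were made equal, and 6 of 6 members met this condition in both scales. Detection on all 5 min arrays held for 5 of 6 members and for 40.2% of probes. Detection on all 5 min arrays and no later array held for 2 of 6 members and for 0.355% of probes.

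The direction of the harvest difference was also read in each treatment taken alone. For Aif1 the log2 difference between later and 5 min arrays was -4.43 in Block, -5.21 in Block+ActD, -4.91 in Activity and -4.32 in Activity+ActD. For Fcer1g it was -2.49, -2.66, -2.96 and -2.18 in the same order, and for Cd14 -1.71, -1.75, -1.88 and -1.59. Levels were thus lower later in 4 of 4 treatments for these members, as they were for Fcgr3a and Ctss. Tyrobp was not detected at any harvest in Block and Activity+ActD, so that no direction can be given for it there. With 1 array per treatment and harvest, the p-values of this comparison reflect how alike the treatments were and say nothing of how preparations vary. In pooled cultures, moreover, fewer cells of a type and less RNA per cell cannot be told apart.

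Treatment with ActD did not alter the harvest difference detectably. The change from 5 min to later harvests with ActD minus that without ActD lay between -0.31 ± 0.21 (Tyrobp, adjusted p = 0.461) and 0.30 ± 0.36 (Fcer1g, adjusted p = 0.707) on the log2 scale. It was called for 0 of 6 members and for 3.99% of the tested probes. The members' median was 0.01, beside -0.05 over all tested probes. The standard errors reached 0.40 (Aif1), so that a modest effect of ActD on the harvest difference could have been missed.

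Between 30 and 60 min only Fcer1g and Cd14 had detected signals at both harvests. At 60 min both were detected only in Block+ActD and Activity+ActD, and at 30 min Cd14 was not detected in Activity. Their differences thus take some undetected signals at face value. The log2 difference, 60 minus 30 min, was -0.42 ± 0.17 for Fcer1g (adjusted p = 0.184) and -0.21 ± 0.12 for Cd14 (adjusted p = 0.382). Of the 6 members 0 were called, and 6.47% of tested probes were. Fcgr3a, Ctss and Tyrobp were not detected on these arrays, and Aif1 was detected on 1 of 4 arrays at 30 min and 0 of 4 at 60 min, so that their values have no order. The fitted difference of Aif1, -0.51 ± 0.17 (adjusted p = 0.113), thus compares signals mostly at background. It passed the threshold with totals made equal (-0.51, adjusted p = 0.0352), without the Block+ActD array at 30 min (-0.69, adjusted p = 0.0224) and without the Block+ActD treatment (-0.64, adjusted p = 0.0460), with the same limit.

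Other genes that define microglia gave a divided picture. C1qa and C1qb, subunits of complement C1q, were detected on the 4 arrays of 5 min and on 0 of 8 later arrays. C1qa was 86.3 in Block, 104.1 in Block+ActD, 110.2 in Activity and 107.4 in Activity+ActD at 5 min, and 46.4 to 70.8 later, which made it at least 1.73-fold higher at 5 min (adjusted p = 1.30e-05). C1qb was 109.5, 134.1, 114.8 and 98.4 in the same order, and 46.7 to 63.3 later, at least 2.05-fold higher at 5 min (adjusted p = 2.22e-07). Trem2, a lipid receptor that signals through Tyrobp, was 120.6, 155.6, 146.9 and 135, and 59 to 73 later, where it was detected on 3 of 8 arrays (log2 difference -1.60 ± 0.13, adjusted p = 6.15e-07). C1qa and C1qb passed the detection filter of this fit only through their 5 min arrays. In the limma fit of all probes their adjusted p was 1.32e-05 and 1.54e-07.

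Several defining markers were not above background anywhere. P2ry12, a purinergic receptor, reached at most 48 units on any array, and Tmem119 at most 74, Spi1 at most 71.5 and C1qc at most 72.8. Irf8, the transcription factor that acts beside PU.1, reached 57.2. All 5 were detected on 0 of 12 arrays. Cx3cr1, the fractalkine receptor, and Itgam, an integrin subunit, were detected on 1 array each, at 5 min. No probe was named Csf1r, Cd68 or Fcgr2a in the annotation used here. The label of microglia marker genes thus had the support of C1qa, C1qb and Trem2 at 5 min and lacked that of P2ry12, Tmem119, Spi1, Irf8 and C1qc at the depth of these arrays. C1qc, though undetected, was 62.1 to 72.8 at 5 min and 42.9 to 54.6 later. It was called lower later in the limma fit of all probes (-0.45, adjusted p = 1.18e-04), where P2ry12, Tmem119, Spi1 and Irf8 were not called. Signals near background limit what can be said of these genes.

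**Figure D2:**
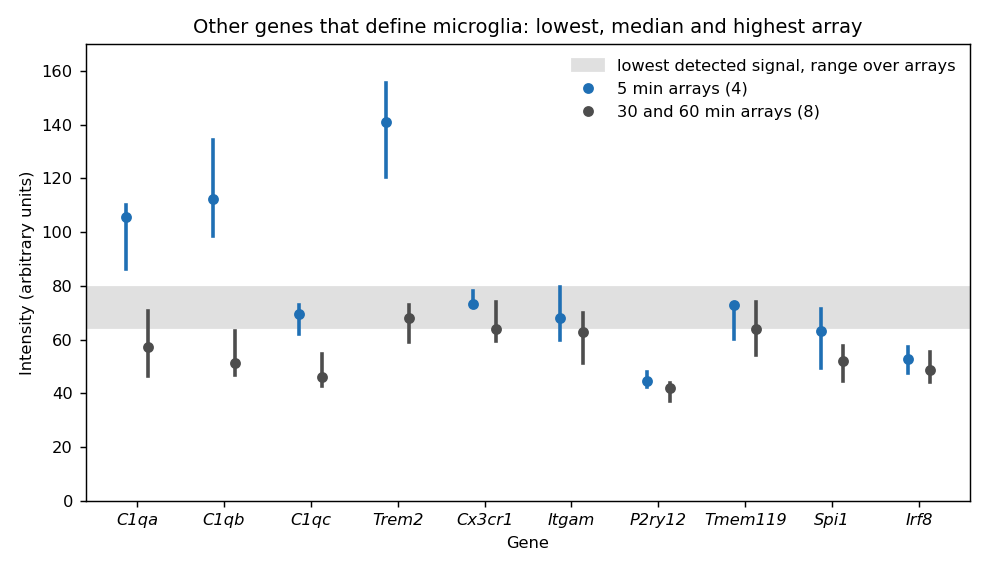
Deposited intensity (arbitrary units) of 10 other genes that define microglia, as the lowest and highest array (line ends) and the median (point) of the 4 arrays of 5 min (blue) and the 8 arrays of 30 and 60 min (dark). The grey band spans the lowest detected signal of the arrays; C1qa, C1qb and Trem2 lie above it at 5 min, while P2ry12 and Irf8 lie below it at all harvests.

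A longer list of other microglia markers had 55 genes on the array. In the fit of all probes 22 of its 55 probes (40%) were called lower at the later harvests and 0 higher. Of all probes, 12.2% were called lower and 13.4% higher. The 22 called probes include some that failed the detection filter. Of the list's 22 tested probes, 14 were called lower and 0 higher in the fit of tested probes, where 23.4% were called lower. Some of these, such as Tlr2, C1qa and C1qb, passed the detection filter only through their 5 min arrays, so that this count favours lower calls. The median log2 difference of the list in the fit of all probes was -0.14, beside 0.00 over all probes. Between 16 and 22 of its probes were detected on the 5 min arrays and between 8 and 13 on the later ones. The called genes with the lowest p were Cyba, a subunit of the phagocyte oxidase, which was 2954.5 to 4174.8 at 5 min and 431.7 to 720.4 later (-2.69 ± 0.08, adjusted p = 8.54e-12), and Tlr2, a receptor for bacterial lipoproteins, which was 207.1 to 248.9 at 5 min and 48.3 to 61.8 later, not detected there and thus at least 5.39-fold higher at 5 min (adjusted p = 2.72e-11). Arhgdib and Lcp1 followed, with log2 differences of -1.63 and -1.72, and then C1qb. The order, errors and p-values of these genes are from the fit of tested probes. In the fit of all probes the order after Tlr2 was Lcp1, C1qb and Arhgdib. Bounds of these other genes are after background correction.

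Of 34 probes for ITAM receptors and their kinases, the partners of the adaptors, 8 (23.5%) were called lower and 0 higher, beside 12.2% of all probes called lower, and their median was -0.02. Some of these called probes failed the detection filter. Of the list's 16 tested probes, 5 were called lower in the fit of tested probes, where 23.4% were called lower. Some of these, such as Prkcd and Ptpn6, passed the detection filter only through their 5 min arrays, so that this count favours lower calls. Prkcd, a protein kinase C, had the lowest p and was at least 2.43-fold higher at 5 min (adjusted p = 6.42e-08). Fgr, a kinase of myeloid cells, fell by 1.04 on the log2 scale, and Ptpn6, a phosphatase, was at least 1.58-fold higher at 5 min. Syk, the kinase that the phosphorylated motif recruits, was 61.6 to 77.6 at 5 min and 54.8 to 79.6 later and was not called (0.05 ± 0.14, adjusted p = 0.778). Syk was detected on 1 array at 5 min and on 1 later array, so that this difference compares signals mostly at background. The other Fc receptors of the list, Fcgr1a, Fcgr2b, Fcer1a and Fcer2, were detected on 0 of 12 arrays.

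Downstream of Cd14, 16 of 38 probes (42.1%) of the Tlr4 pathway were called lower and 1 (Tab2) higher, with a median of -0.16. Of all probes, 12.2% were called lower and 13.4% higher. Of the list's 21 tested probes, 13 were called lower in the fit of tested probes, where 23.4% were called lower. Some of these, such as Tlr2, passed the detection filter only through their 5 min arrays, so that this count favours lower calls. Tlr4 itself was detected on 0 of 12 arrays and reached at most 54.2. The chemokine genes Cxcl1 and Ccl2, targets of NF-κB, showed larger measured differences than any member. Cxcl1 was 9883.2 to 13270 at 5 min and 73.6 to 121.9 later (-7.23 ± 0.08, adjusted p = 6.72e-16). Ccl2 was 10032.2 to 13017.8 at 5 min and 112.3 to 248.2 later (-6.20 ± 0.12, adjusted p = 9.13e-14). Nfkbia, the NF-κB inhibitor, fell by 2.03 ± 0.06 (adjusted p = 1.99e-11) and Nfkb2 fell by 2.25 ± 0.10 (adjusted p = 1.44e-09). Both chemokines and both regulators are also made by astrocytes and fibroblasts, and which cells made them here was not tested.

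Around Ctss, 13 of 23 probes (56.5%) for cathepsins and antigen presentation were called lower and 0 higher, with a median of -0.30. Of all probes, 12.2% were called lower and 13.4% higher. Of the list's 17 tested probes, 12 were called lower in the fit of tested probes, where 23.4% were called lower. Ctsh, another lysosomal protease, was 477 to 532.9 at 5 min and 118.6 to 160.7 later (-2.20 ± 0.11, adjusted p = 2.41e-09). RT1-DMb and RT1-Da encode MHC class II chains. RT1-DMb fell by 1.75 ± 0.14 (adjusted p = 4.57e-07), and RT1-Da, not detected later, was at least 2.18-fold higher at 5 min (adjusted p = 8.72e-08). RT1-Da passed the detection filter only through its 5 min arrays. Ctsd and Ctsl, which most cells express, fell by 0.66 and 0.62. Cd74, the invariant chain that cathepsin S cleaves, was detected on 0 of 12 arrays and reached at most 53.1.

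**Figure D3:**
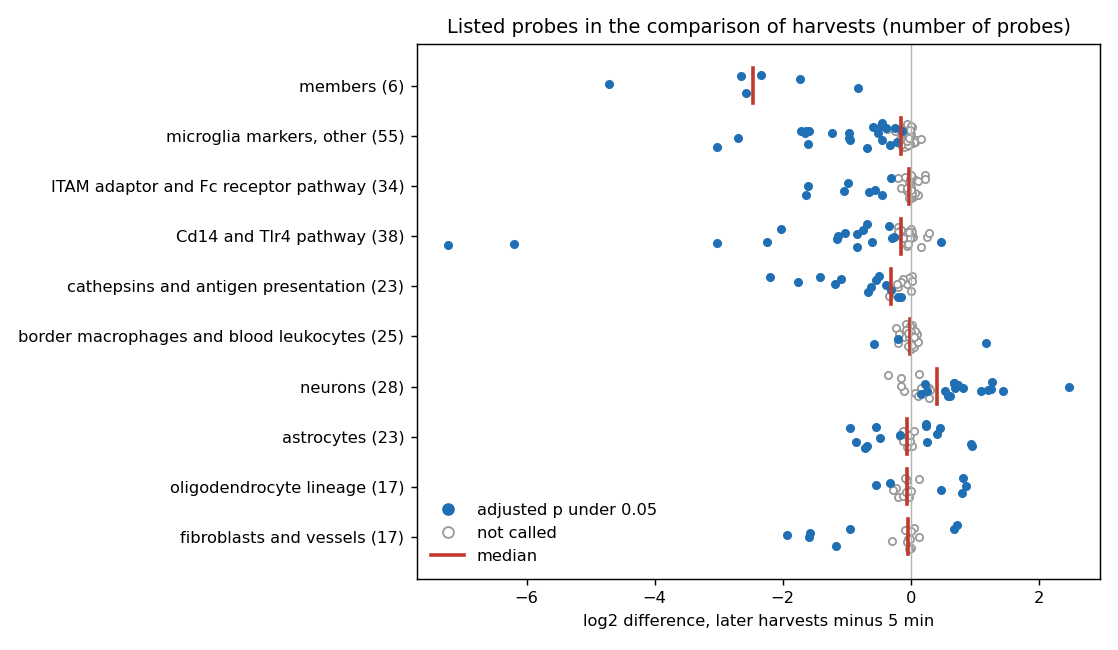
Log2 difference, later harvests minus 5 min, of each probe of the members and of 9 gene lists (number of probes in brackets), fitted over all probes of the array. Filled points passed an adjusted p of 0.05, open points did not and red bars mark the list medians; the members' median is -2.46, that of the other microglia markers -0.14 and that of the neuron markers 0.42.

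Markers of the other cells of these cultures also differed between the harvests, and their part in the members' difference was not tested. Their counts are from the fit of all probes, where 13.4% of probes were called higher and 12.2% lower. With totals made equal, the summed intensity of the 6 members was 1265 to 1752 at 5 min and 327 to 431 later. The sum of 28 neuron markers was 64527 to 75059 at 5 min and 79095 to 97804 later, and 17 of them were called higher and 0 lower. Fibroblast and vessel markers (17 probes) summed to 5503 to 5778 at 5 min and 2463 to 3722 later, with 2 called higher and 5 lower. Astrocyte markers (23 probes) summed to 147509 to 152076 and 121546 to 134082, with 7 called in each direction. Border macrophage and blood leukocyte markers (25 probes) overlapped, at 1355 to 1572 and 1397 to 1651, with 1 called higher and 2 lower. The border macrophage markers Mrc1, Cd163 and Lyve1 were detected on 0 of 12 arrays. Other probes of this list were detected, between 4 and 6 on the 5 min arrays and between 3 and 5 on the later ones.

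The effect of activity was then compared with harvest as a factor, in fits where the later arrays added mostly background signals for the members. Without ActD the members were higher in Activity than in Block by 0.09 ± 0.14 (Cd14) to 0.24 ± 0.20 (Aif1, adjusted p = 0.764) on the log2 scale. The difference was above 0 for 6 of 6 members, with a median of 0.13 beside 0.01 over all probes tested, and 0 of 6 members and 0% of probes were called (884 probes had an unadjusted p under 0.05). For Cd14 the sign turned with totals made equal (-0.0024). Without the 5 min harvest the members' median was 0.03.

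With ActD the members did not share a direction. The difference between Activity+ActD and Block+ActD was above 0 for 2 members and below 0 for 4, from -0.33 ± 0.14 (Cd14, adjusted p = 0.996) to 0.07 ± 0.20 (Fcer1g), with a median of -0.15 beside -0.01. Again 0 of 6 members and 0% of probes were called (338 probes had an unadjusted p under 0.05). Without the 5 min harvest the median was 0.12. The interaction of Activity and ActD was below 0 for 6 of 6 members, from -0.42 ± 0.19 (Cd14, adjusted p = 0.705) to -0.05 ± 0.28 (Fcer1g), with a median of -0.33 beside -0.02. It was called for 0 of 6 members and 0% of probes (755 with an unadjusted p under 0.05), and without the 5 min harvest its median was 0.16.

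ActD itself changed no member detectably. Averaged over Block and Activity, levels with ActD minus those without were 0.23 ± 0.10 for Cd14 (adjusted p = 0.238) and 0.01 ± 0.14 for Aif1, with a median of 0.06 beside 0.03 over all probes tested. The call count was 0 of 6 members and 0% of probes (2167 with an unadjusted p under 0.05). The Aif1 estimate changed sign with scaling (-0.11 with totals made equal).

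The opposite signs with and without ActD were seen on the 5 min arrays. There the members were higher in Activity than in Block without ActD, by 0.57 for Aif1, 0.43 for Fcer1g, 0.21 for Cd14, 0.59 for Fcgr3a, 0.54 for Ctss and 0.39 for Tyrobp (log2 difference of 1 array each). With ActD they were lower in Activity+ActD than in Block+ActD, with differences of -0.57, -0.25, -0.43, -0.84, -0.75 and -0.43 in the same order. These signs held for 6 of 6 members in each of the 4 scalings tried, though Tyrobp was not detected in Block or Activity+ActD and its differences are against background. The medians were 0.49 and -0.50, beside 0.00 over all tested probes in both. With totals made equal and no background correction, the differences without and with ActD were smaller for Cd14 (0.09 and -0.28) and Tyrobp (0.12 and -0.17).

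Past 1.5-fold, 1 of 6 members (Fcgr3a) was higher without ActD, where 2.03% of probes were, and 2 of 6 (Fcgr3a and Ctss) were lower with ActD, where 1.42% of probes were. The count without ActD was 0 with totals made equal or with quantile normalization alone, and the count with ActD was 1 with totals or medians made equal. With 1 array per group these differences have no replicate check.

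Block+ActD and Activity both lay above Block and Activity+ActD at 5 min for 6 of 6 members and for 11.7% of tested probes. With totals made equal the order held for 4 members and 8.22% of probes, since Fcer1g in Block+ActD differed from Block by -0.03 and Tyrobp in Activity+ActD from Activity by 0.08. With medians made equal it held for 5 members and 19.3% of probes.

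**Figure D4:**
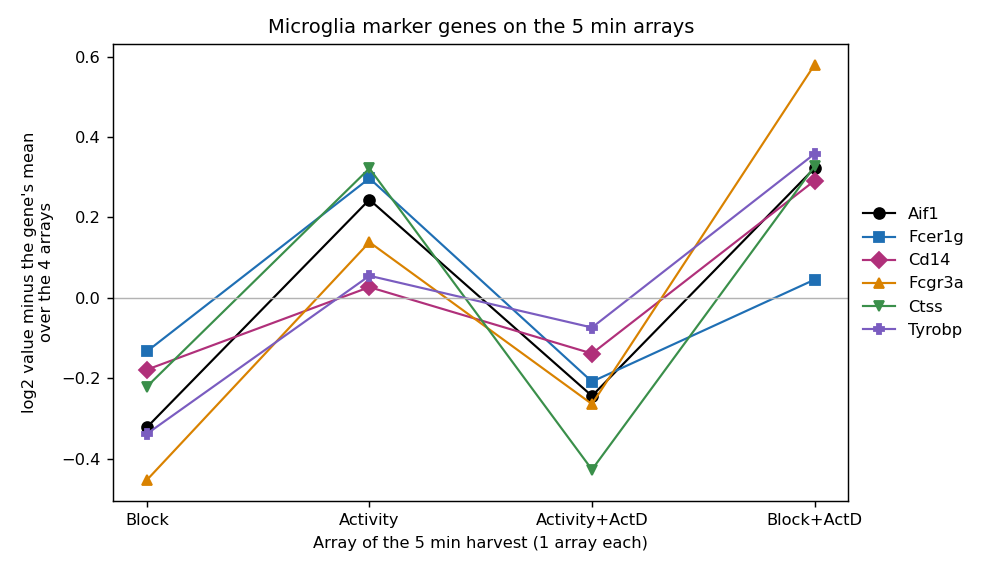
Log2 value of each member on the 4 arrays of the 5 min harvest, minus the gene's mean over them (1 array per treatment; lines join the points of a gene and imply no order). Activity and Block+ActD lie above the mean for 6 of 6 members, and Block and Activity+ActD below it; Tyrobp was not detected in these latter arrays.

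Other markers were set beside the members on the 5 min arrays. The members' summed intensity with equal totals was 1350 in Block, 1708 in Block+ActD, 1752 in Activity and 1265 in Activity+ActD. The sum over the other microglia markers, to which bright probes such as Cyba and Coro1a contribute much, was 10238, 12171, 10998 and 11986 in the same order. By probe, 17 of its 22 tested probes were higher in Activity than in Block without ActD and 13 of 22 were lower with ActD, with median log2 differences of 0.12 and -0.08. Of these 22 probes 5 had the order of the members. The neuron markers had medians of -0.30 without ActD and 0.17 with ActD, and 1 of 27 had that order. Gria2, an AMPA receptor subunit of neurons, was 1369.8 in Block, 303.1 in Block+ActD, 855.8 in Activity and 380.2 in Activity+ActD. The highest Gria2 signal thus lay in Block, and both ActD arrays were low. Whether the makeup of the cultures moved with the members at 5 min was not tested.

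The members varied together over the 12 arrays mainly through the harvests. Pearson's r between pairs of members (15 pairs, log2 values, arrays sharing the harvest difference) was 0.92 to 0.99 with a median of 0.97. With the mean of each harvest subtracted it was 0.00 to 0.90 (median 0.52). Within the 4 arrays of 5 min it was 0.48 to 0.99 (median 0.88), and within the 8 later arrays, where most signals were at background, -0.08 to 0.86 (median 0.38).

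The named probes whose profile over the 12 arrays was most like the members' mean were Tmem220 (r = 0.995), Plat and Irf7 (both 0.99), followed by C2, Slamf9, Cd83, Lgals3, Tnfrsf9, Ifi27 and RT1-M10-1 (0.99 each). Irf7, an interferon regulatory factor, was 205.5 to 328.1 at 5 min and 42.7 to 50.9 later. Lgals3, which encodes galectin-3, was 1103 to 1575.5 at 5 min and 139.4 to 219.2 later. With the mean of each harvest subtracted, Psmb9, a subunit of the immunoproteasome, was nearest (r = 0.93), followed by Tmem220 (0.93), Bst2, Mfsd2a and Arhgdib (0.91 each). These values describe likeness in 12 arrays that share their harvests.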

How the data were processed

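Total RNA of 12 cultures was hybridised to 1-colour Illumina RatRef-12 arrays, and groups were taken from the deposited labels. The authors read them with an Illumina BeadStation scanner and the BeadStudio software. Each deposited intensity was a linear signal without normalization. Each deposited detection p-value compared a probe with the negative controls of its array. The intensity values that the authors had scaled to equal totals (factors 0.882 to 1.12) served as an alternative. Symbols came from the platform annotation (13793 named probes, 8730 unnamed).

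The neqc function of limma 3.58.1 (R 4.3.3) corrected the background, using the detection p-values and an offset of 16, normalized quantiles and gave log2 values. A probe was tested if it was detected (detection p under 0.01) on 2 or more arrays, which held for 11792. Treatment and harvest were factors in lmFit and eBayes with a variance trend (6 residual degrees of freedom), with Benjamini-Hochberg adjustment at 0.05 over all tested probes. List counts came from a fit of all 22523 probes unless given for tested probes. Errors and p-values of listed genes came from the fit of tested probes. The fit was tested on simulated data.

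Each group held 1 array. Harvests therefore stood in for replicates in the treatment comparisons, and treatments in the harvest comparisons. The number of arrays limits the precision, and p-values measure the spread between these arrays, which may be technical. For a gene detected on none of the later arrays the fold is a bound, against the higher of the lowest detected signal and its own on each array; fitted differences of such members take undetected signals at face value.

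All member probes were named. Of the other lists, called genes with the lowest p (at most 5) and a set of defining receptors were named, and a choice of those was printed. Syk, Tab2, Ctsd, Coro1a and Gria2 fell outside this rule and were chosen after their values were seen. Spi1, Irf8, Mrc1, Cd163 and Lyve1 also fell outside it. Likeness named the 10 probes with the highest r, and the 5 highest after subtracting harvest means. The members and lists were chosen with earlier results of these data known. Alternatives were equal totals, equal medians, quantile normalization without background correction, 3 other filters, robust eBayes, and leaving out each array, harvest or treatment.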

Additional observations from a re-analysis of the deposited data

How the results depend on the processing

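The harvest difference of the 6 members was called in every setting that gave a value. The log2 difference ranged from -4.72 to -3.57 for Aif1, -2.58 to -1.77 for Fcer1g, -1.73 to -1.06 for Cd14, -2.34 to -1.43 for Fcgr3a, -2.64 to -1.73 for Ctss and -0.83 to -0.50 for Tyrobp over the other scalings, filters and variance estimates, and from -4.85 to -4.55 for Aif1 and -0.94 to -0.72 for Tyrobp when arrays or treatments were left out. The filter of detection on all 12 arrays left 0 members and gave no values. Between 60 and 30 min, 1 member (Aif1, not detected at 60 min) was called with equal totals, and 0 to 1 when arrays or treatments were left out.

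Signs turned where estimates were near 0. With equal totals, Activity minus Block was -0.0024 for Cd14 without ActD and -0.0025 for Fcer1g with ActD. The ActD difference of Aif1 was -0.108 with equal totals, -0.0889 with equal medians and -0.0118 with quantile normalization alone. Leaving out arrays or harvests gave -0.0785 to 0.2393 for Fcer1g with ActD, -0.4676 to 0.2676 for its interaction and -0.1116 to 0.1328 for the ActD difference of Aif1. The cause was not tested. At 5 min, the members past 1.5-fold numbered 0 without ActD (equal totals, quantile) and 1 with ActD (equal totals, equal medians). No other call of a member changed.

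The replicate number could not serve as a block, since the labels gave all 12 arrays the same one. Each fit already held treatment and harvest, with 30 and 60 min pooled in the fit of the harvest change with and without ActD. Signals of Fcgr3a, Ctss and Tyrobp on the later arrays were not above background. This limits the differences of Fcgr3a and Ctss to bounds. For Tyrobp, also undetected in Block and Activity+ActD at 5 min, it leaves no bound. The 5 min arrays carry most of the measurable signal, and most member signals at 30 and 60 min were at background in each treatment.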
